A study of Mus musculus with 8 samples.

Results

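Histone genes were measured by 63 of the 22142 tested probe sets, each standing for a different gene. They were chosen by gene symbol, under a rule set with earlier results of these data known. The rule took core and linker histones under their old or new names. It left out the H2- genes of the major histocompatibility complex and the macroH2A and CENP-A genes. By their symbols, 52 of the 63 were classed as replication-dependent, 8 as variants and 3 as cluster genes specific to testis (H1f6, H2ac1 and H2bc1). Whether each gene follows the expression of its class in these cells was not tested. The same symbol rule met 75 protein-coding genes in RefSeq, of which 12, among them H1f0 and H1f4, had no named row and were not analysed here. The 4 IDE-KD arrays came from mouse alphaTC1.9 cells with siRNA knockdown of Ide, which encodes insulin-degrading enzyme. The 4 control arrays came from control alphaTC1.9 cells. All cells grew with 16 mM glucose and had no further treatment. AlphaTC1.9 is 1 clonal line of glucagon-producing mouse tumour cells, and the sources used here name neither the kind of control nor the time of harvest after knockdown. Replicates are called biological and their RNA independent, but no separate cultures are named. Each p-value therefore reflects only the variation among these arrays, which could be technical.

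A nucleosome wraps DNA around an octamer of H2A, H2B, H3 and H4, and linker histone H1 binds where the DNA enters and leaves. Replication-dependent histone genes lie in clusters, have no introns and are transcribed mainly in S phase. Their mRNAs end in a stem-loop bound by SLBP in place of a poly(A) tail. The primer of the labelling reaction is not named in the sources used here. Variants such as H2A.Z and H3.3 are encoded by separate genes with introns and polyadenylated mRNAs, are made throughout the cell cycle and replace the S phase histones at chosen sites.

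The values were log2 signals on Clariom S arrays, and their medians over all tested probe sets lay between 5.10 and 5.17. A difference is the IDE-KD mean minus the control mean on this log2 scale, with its standard error (SE) from limma. Knockdown showed in Ide itself, which read 7.91, 8.14, 7.92 and 8.05 on the IDE-KD arrays, against 8.66, 8.62, 8.72 and 8.48 on the control arrays, a difference of -0.62 (SE 0.12). Its adjusted p in limma was nonetheless 1.00. Glucagon (Gcg), the defining hormone of alpha cells, averaged 12.06 in both groups. Of 10 measured alpha cell markers, 4 were fitted higher and 6 lower (median -0.05). Of 20 measured marker genes of beta, delta and other cell types, 19 were fitted higher, with a median difference of 0.16. Over all 22142 probe sets, 11528 were fitted higher. At an unadjusted p under 0.05, 2 were higher (10%, against 2.69% of all probe sets) and 1 was lower (5%, against 1.91%). The higher ones were Prss1 (3.22 in IDE-KD and 2.79 in control cells) and Lum (2.69 and 2.40). Both lay below the median negative control row of 4.16. Over all 20 of these markers, the median shift was taken per array against each gene's control mean. It was 0.27, 0.03, 0.44 and 0.01 for IDE-KD arrays 1 to 4, against -0.12 to 0.14 for the control arrays. The lower one was the beta cell factor Nkx6-1, with 6.49 in IDE-KD and 6.79 in control cells, a difference of -0.30 (SE 0.14). Insulin (Ins2), the beta cell hormone, averaged 4.87 in IDE-KD and 4.61 in control cells, close to the median array control row of 4.52. Whether these markers bear on the histone values was not tested. In bulk RNA, fewer cells in S phase and less histone mRNA per cell cannot be told apart.

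No histone gene passed the threshold of 0.05 on the limma p adjusted over all probe sets, where 0 of 22142 probe sets (0%) passed. At an unadjusted p under 0.05 there were 2 of 63 members in either direction, against 4.59% of all probe sets. Both (H1f10 and H2ax) were lower in IDE-KD cells, against 1.91% of all probe sets, and 0 were higher, against 2.69%. The groups did not overlap at 0 members, against 1.41% of all probe sets for IDE-KD lower and 1.39% for IDE-KD higher. The 95% confidence interval excluded a change of 2-fold at all 63 members, against 99.7% of all probe sets, and of 1.5-fold at 58 of them (92.1%), against 83.6%. These intervals are for the array signal. Of the members, 3 lay below the median array control row and 8 below the highest background probe set (6.44). At such levels the signal may not follow a change in RNA.

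**Figure D1:**
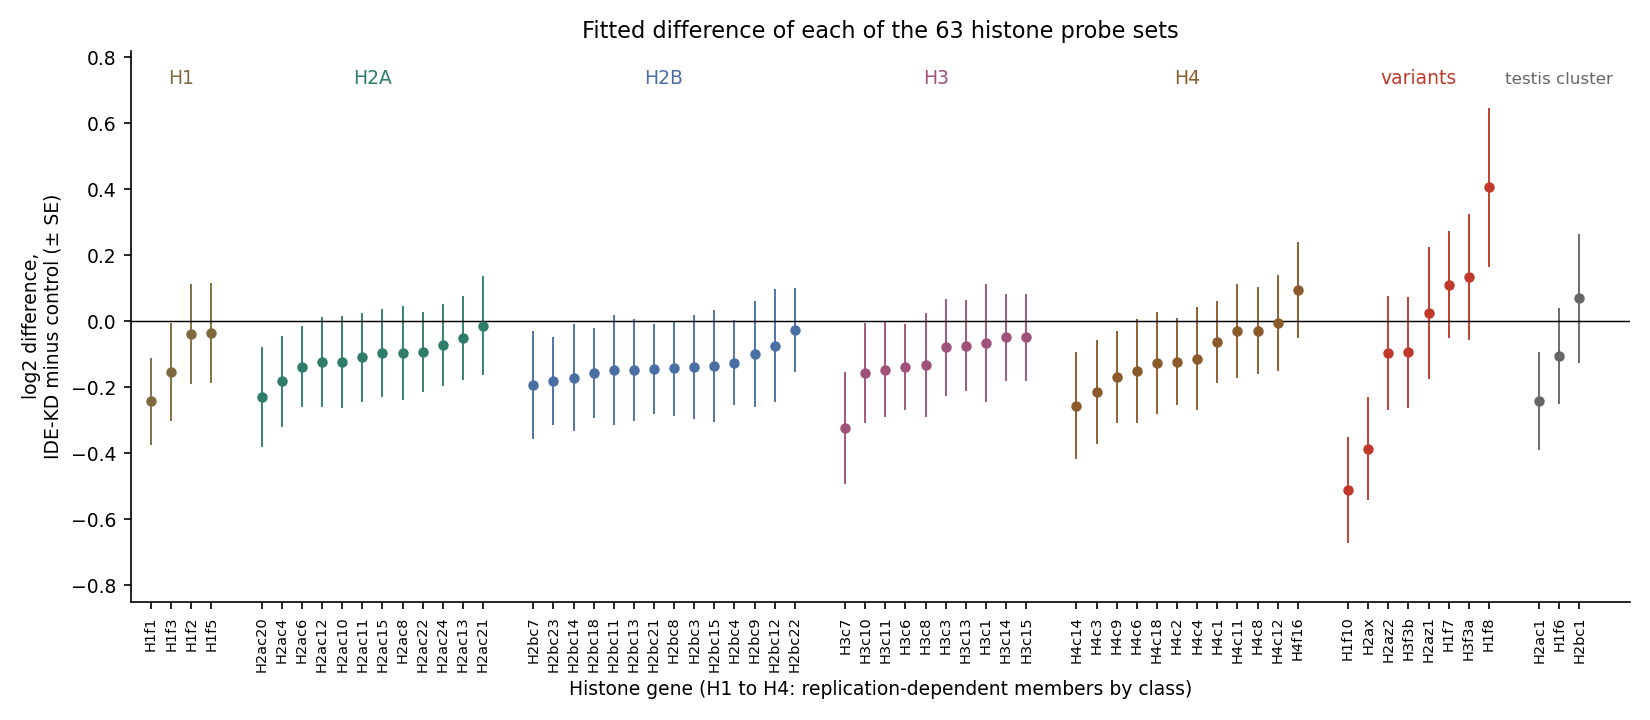
Fitted log2 difference (IDE-KD minus control, y axis, bars ± SE, 4 arrays per group) of each of the 63 histone genes, by class of the replication-dependent members (H1 to H4) and then variants and testis cluster genes. Of the 52 replication-dependent genes 51 sit below 0, within a narrow band, while the variants spread from -0.51 for H1f10 to 0.41 for H1f8.

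Replication-dependent histones had small fitted differences of nearly the same sign, none of which passed the test. Of the 52 genes, 51 had a fitted difference below 0, against 47.9% of all tested probe sets. Their median difference was -0.12, against 0.01 over all probe sets, and single genes ranged from -0.32 (H3c7) to 0.09 (H4f16). The typical SE of a single member was 0.14, larger than this shift. The 52 genes were also brighter than most probe sets, with a median level of 9.46 against 5.12. Among the 12616 probe sets at or above the median array control row, the median difference was -0.02. Of these, 2.43% were lower and 1.70% higher at an unadjusted p under 0.05 in limma. Their share fitted below 0 was not counted. Shares over all probe sets have the same limit wherever bright genes are set beside them. By class the median was -0.10 for 4 H1 genes, -0.10 for 12 H2A genes, -0.14 for 14 H2B genes, -0.11 for 10 H3 genes and -0.12 for 12 H4 genes. By location it was -0.13 for the 43 genes of the chromosome 13 cluster and -0.11 for the 8 genes of the chromosome 3 cluster, and H4f16 on chromosome 6 read 0.09.

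These counts may overstate the number of separate measurements. Core histone genes of a class are similar in sequence, so probes of a member may take up RNA of its relatives. Coding and probe sequences were not compared here. H3c14 and H3c15 held the same value on every array, and H4c18 and H2ac24 each matched an unnamed probe set exactly, so the members held 62 distinct rows. H3c13 stayed within 0.06 of H3c14 on all 8 arrays, but pairs of different classes were close as well, with H3c10 and H2ac10 within 0.10 and H3c11 and H2ac12 within 0.12. How far each probe set separates its gene from the others of its class is uncertain.

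The replication-dependent genes also moved together from array to array within each group, by more than the groups differed. Relative to each gene's control mean, the median log2 shift of the 52 genes was 0.12, -0.33, -0.13 and -0.11 on IDE-KD arrays 1 to 4, against -0.25, 0.07, 0.13 and 0.03 on control arrays 1 to 4. The ranges of the 2 groups overlapped, since IDE-KD array 1 lay near the top of the control range and control array 1 below IDE-KD arrays 1, 3 and 4. IDE-KD array 2 was the lowest of its group for 44 of the 52 genes (27.6% of all probe sets), and IDE-KD array 1 the highest for 48 (26.2%). Control array 1 was the lowest of its group for 50 of the 52 (22.0%), including all 4 H1, all 12 H2A and all 10 H3 genes.

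The size of the median difference depended on single arrays. Without IDE-KD replicate 2 the median was -0.05 and 42 of 52 genes were fitted lower. Without control replicate 1 it was -0.21, with 51 fitted lower, and without IDE-KD replicate 1 it was -0.20, with 50 fitted lower. Without control replicate 3 it was -0.07, with 45 fitted lower. With IDE-KD arrays 1 and 3 both left out it was -0.22, with 50 fitted lower. With IDE-KD array 2 and control array 1 both left out, a choice made after seeing the data, it was -0.13, with 47 fitted lower.

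**Figure D2:**
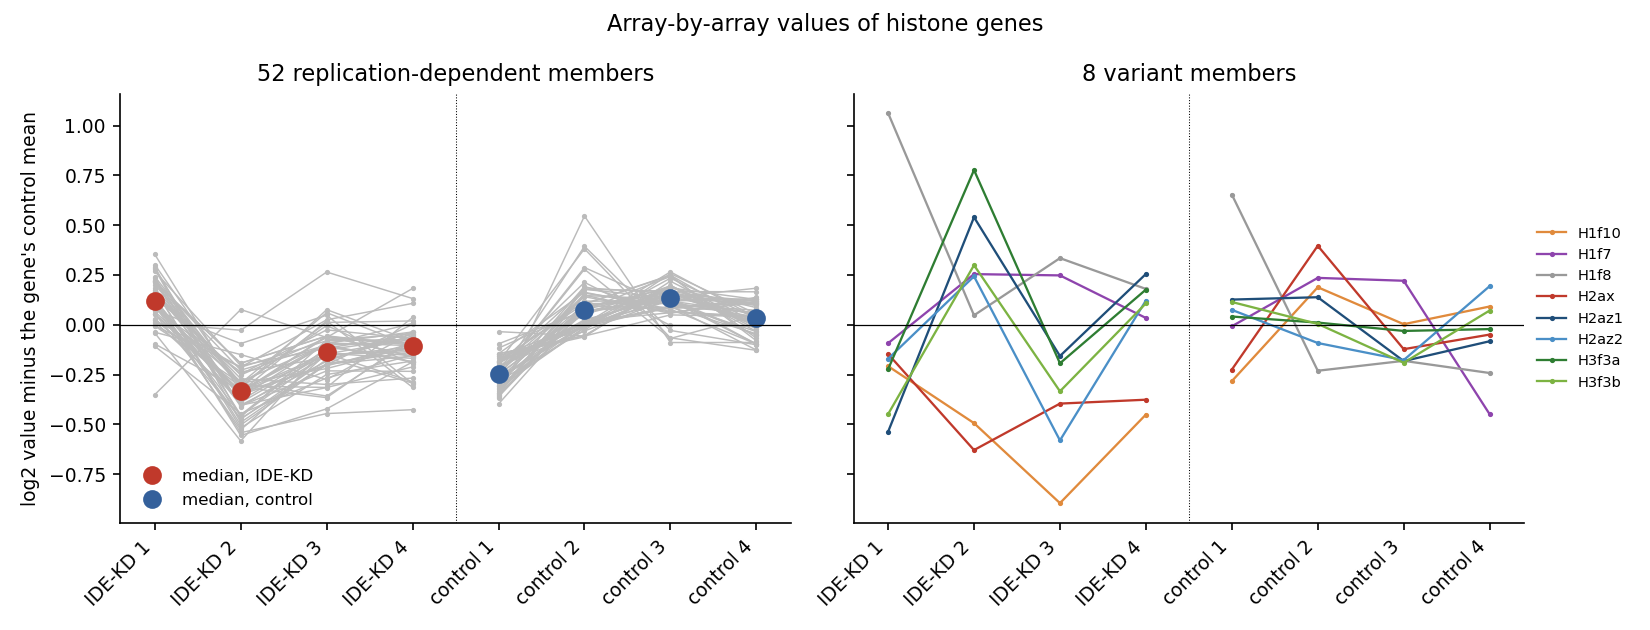
Log2 value minus the gene's control mean (y axis) on each array (x axis) for the 52 replication-dependent genes (grey lines, large points their median) and the 8 variants (1 coloured line each). IDE-KD array 2 and control array 1 are low for nearly all replication-dependent genes, while H2az1, H2az2, H3f3a and H3f3b peak on IDE-KD array 2 among the IDE-KD arrays.

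Technical rows were compared on the same arrays. Background probe sets with 18 or more G or C bases averaged 6.06, 5.56, 5.68 and 5.49 on IDE-KD arrays 1 to 4, against 5.77, 5.47, 5.85 and 5.70 on control arrays 1 to 4. They were highest on IDE-KD array 1, as most replication-dependent genes were within IDE-KD, but control array 1 was not their lowest control array. Negative control rows averaged 4.197, 4.281, 4.198 and 4.249 on IDE-KD arrays 1 to 4, against 4.304, 4.313, 4.376 and 4.281 on control arrays 1 to 4. They were thus lower on IDE-KD arrays apart from array 2, which was level with control array 4. The SD over all tested probe sets was lowest on IDE-KD arrays 3 and 1 (2.13 and 2.16) and reached 2.25 on IDE-KD array 2. The part of these features in the histone values was not tested.

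Upstream sequence was examined because these genes moved together. RefSeq's GRCm38.p6 promoter table held 57 of the 63 members, 47 of them replication-dependent. The 250 bases before the annotated start were searched on both strands for the TATA box (TATAAA), the CCAAT box (CCAAT), the octamer bound by Oct-1 (ATTTGCAT) and the H1 box (AAACACA), whose matches did not need to be apart from each other. CCAAT was present in all 4 H1, all 12 H2A and all 12 H2B promoters, in 6 of 8 H3 and in 3 of 11 H4 promoters, against 33.8% of the 32851 promoters in the table. TATAAA was in 22 of 47 (46.8%), against 12.4% of all. The octamer was in 5 of 12 H2A and 5 of 12 H2B promoters and in 0 H1, H3 or H4 promoters, against 1.60% of all. The H1 box was in 3 of 4 H1 promoters, against 6.25% of all. The searched windows of replication-dependent genes held a median of 44.4% G or C, against 52.4% over all promoters. These shares were not corrected for base composition. These motifs were not confined to the replication-dependent genes. CCAAT was in 5 of 7 variant promoters (71.4%, against 78.7% of replication-dependent ones), and TATAAA, the octamer and the H1 box in 1 of 7 each. In the 3 testis cluster promoters CCAAT and the H1 box were in all 3, and TATAAA and the octamer in 2. Among H2A and H2B members 6 divergent pairs shared 163 to 248 of these upstream bases, so their counts are not separate.

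The 150 bases before the start follow for the replication-dependent gene with the smallest p of each class that had a promoter entry. Those of 3 picked variants come after them, to let the cluster type and the variant type be compared. Each is written 5′ to 3′ on the gene's strand, and capitals mark matches to the 4 motifs on either strand.
H1f1, chr13:23763518-23763667, plus strand: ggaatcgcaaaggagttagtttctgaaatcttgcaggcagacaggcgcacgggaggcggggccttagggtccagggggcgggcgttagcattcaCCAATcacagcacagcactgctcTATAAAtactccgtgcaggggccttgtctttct
H2ac20, chr3:96220881-96221030, minus strand: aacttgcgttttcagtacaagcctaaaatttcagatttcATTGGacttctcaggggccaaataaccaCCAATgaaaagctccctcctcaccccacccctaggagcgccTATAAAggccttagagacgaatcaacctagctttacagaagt
H2bc23, chr13:21810200-21810349, minus strand: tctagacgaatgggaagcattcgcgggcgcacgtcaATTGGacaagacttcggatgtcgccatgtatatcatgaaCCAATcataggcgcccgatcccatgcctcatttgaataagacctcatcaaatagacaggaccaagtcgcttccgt
H3c6, chr13:23562386-23562535, minus strand: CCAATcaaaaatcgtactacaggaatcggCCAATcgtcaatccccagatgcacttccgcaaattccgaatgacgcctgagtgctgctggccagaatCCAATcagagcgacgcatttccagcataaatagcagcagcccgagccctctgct
H4c3, chr13:23698459-23698608, minus strand: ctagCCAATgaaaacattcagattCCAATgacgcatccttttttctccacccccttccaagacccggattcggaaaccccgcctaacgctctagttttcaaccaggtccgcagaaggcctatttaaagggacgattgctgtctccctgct
H1f10, chr6:87981483-87981632, minus strand: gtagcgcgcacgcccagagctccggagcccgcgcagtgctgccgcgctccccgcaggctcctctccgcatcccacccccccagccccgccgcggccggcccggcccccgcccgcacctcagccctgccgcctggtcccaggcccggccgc
H2az1, chr3:137864337-137864486, plus strand: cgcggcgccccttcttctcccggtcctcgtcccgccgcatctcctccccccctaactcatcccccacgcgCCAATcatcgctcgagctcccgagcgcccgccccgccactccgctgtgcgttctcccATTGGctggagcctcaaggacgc
H3f3a, chr1:180813606-180813755, minus strand: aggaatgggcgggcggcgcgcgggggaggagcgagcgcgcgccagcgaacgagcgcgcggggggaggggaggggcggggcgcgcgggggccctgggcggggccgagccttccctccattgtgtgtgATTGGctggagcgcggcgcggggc
The 3 variant stretches were 82.7% (H1f10), 70.7% (H2az1) and 80.7% (H3f3a) G or C, against 45.3% to 56.0% in the 5 cluster genes. Over all 250-base windows the contrast was smaller, with a median of 57.2% in 7 variant promoters and 44.4% in 47 replication-dependent ones. A match is a description of these letters and not a shown binding site.

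Among linker histones of the clusters, H1f1 (H1.1) had the smallest p. It read 9.02, 8.68, 8.86 and 8.98 on the IDE-KD arrays, against 8.93, 9.34, 9.13 and 9.12 on the control arrays. The groups overlapped, since IDE-KD arrays 1 and 4 were both above control array 1. The difference was -0.24 (SE 0.13) (exact two-sided permutation p = 0.0857, where 0.0286 is the smallest that 4 against 4 arrays allow). H1f3 (H1.3) differed by -0.15 (SE 0.15). H1f2 (H1.2) and H1f5 (H1.5) differed by -0.04 (SE 0.15) each. H1f2 departed from the array pattern within IDE-KD, where array 1 was its lowest, at 6.05. Control array 1 was its lowest control array, at 6.14, as for the other H1 genes.

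H2A genes of the clusters were all 12 fitted lower, between -0.23 and -0.01. H2ac20, of the chromosome 3 cluster, had the smallest p, with 10.81, 10.27, 10.74 and 10.67 on the IDE-KD arrays, against 10.55, 11.04, 10.92 and 10.89 on the control arrays. The difference of -0.23 (SE 0.15, exact two-sided permutation p = 0.229) lay within the overlap of the groups, since control array 1 was below 3 of the IDE-KD arrays. H2ac4 differed by -0.18 (SE 0.14) and H2ac6 by -0.14 (SE 0.12). H2ac22 and H2ac13 differed by -0.09 (SE 0.12) and -0.05 (SE 0.13). H2ac21 read 6.82 ± 0.14 in IDE-KD and 6.83 ± 0.28 in control cells (SD, n = 4 each).

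H2B genes were all 14 fitted lower, between -0.19 and -0.03. H2bc7 stood at the low end, with 9.17, 8.48, 8.75 and 8.81 on the IDE-KD arrays, against 8.71, 8.97, 9.25 and 9.05 on the control arrays. IDE-KD array 1 exceeded 3 of the control arrays, and the difference was -0.19 (SE 0.16, exact two-sided permutation p = 0.343). H2bc23 differed by -0.18 (SE 0.13) and H2bc18 by -0.16 (SE 0.14). H2bc15 and H2bc12 differed by -0.14 (SE 0.17) and -0.07 (SE 0.17), and H2bc21 by -0.14 (SE 0.14).

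H3 genes held the lowest fitted difference of the clusters. H3c7, which encodes H3.2, read 9.30, 8.64, 8.73 and 8.75 on the IDE-KD arrays, against 8.83, 9.36, 9.35 and 9.18 on the control arrays. IDE-KD arrays 2, 3 and 4 were below every control array and the remaining one, array 1, was above 2 of them. The difference was -0.32 (SE 0.17, exact two-sided permutation p = 0.143). H3c10 and H3c6 differed by -0.16 (SE 0.15) and -0.14 (SE 0.13), and the shared value of H3c14 and H3c15 by -0.05 (SE 0.13). H3c1 was dim, at 2.30 ± 0.17 in IDE-KD and 2.37 ± 0.39 in control cells (SD, n = 4 each), below the median array control row.

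H4 genes encode a single protein from many loci. H4c14 read 9.84, 9.14, 9.28 and 9.51 on the IDE-KD arrays, against 9.43, 9.70, 9.88 and 9.78 on the control arrays, a difference of -0.26 (SE 0.16, exact two-sided permutation p = 0.229). H4c3 differed by -0.22 (SE 0.16) and H4c9 by -0.17 (SE 0.14). For these genes the arrays of the groups overlapped. H4c1 and H4c11 differed by -0.06 (SE 0.12) and -0.03 (SE 0.14). H4f16, the only replication-dependent member on chromosome 6, was also the only one fitted above 0. It read 5.76 ± 0.13 in IDE-KD and 5.67 ± 0.26 in control cells (SD, n = 4 each), near the background probe sets rich in G and C, which reached 6.44.

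Variant histones did not share a direction, with 4 of 8 fitted lower and 4 higher and a median of -0.03. The 6 variants expressed in somatic tissues had 4 fitted lower and 2 higher, with a median of -0.095. With rows below the median array control row left out, the variant median was -0.094. The median of all 8 depended on single arrays, being 0.10 without IDE-KD replicate 1, -0.18 without IDE-KD replicate 2, 0.06 without IDE-KD replicate 3 and -0.11 without IDE-KD replicate 4. It was 0.0058 without control replicate 1, -0.011 without control replicate 2 and -0.10 without control replicate 3. The variants expressed in somatic tissues comprise H2ax, which marks DNA breaks once phosphorylated, H2az1 and H2az2, which encode H2A.Z at promoters, H3f3a and H3f3b, which encode the same H3.3 protein, and H1f10, a linker histone. The germline variants are H1f7, of spermatids, and H1f8, of oocytes.

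H1f10 (H1x) had the smallest p of all 63 members, rank 131 among 22142 probe sets. It read 6.73, 6.45, 6.05 and 6.49 on the IDE-KD arrays, against 6.66, 7.13, 6.94 and 7.03 on the control arrays. The groups overlapped only where IDE-KD array 1 exceeded control array 1. The difference was -0.51 (SE 0.16), or 1.43-fold lower, with a 95% confidence interval of -0.86 to -0.17. The exact two-sided permutation p was 0.0571 and the limma adjusted p 1.00.

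H2ax was the other member with an unadjusted p under 0.05. It read 9.29, 8.80, 9.04 and 9.06 on the IDE-KD arrays, against 9.21, 9.83, 9.31 and 9.38 on the control arrays. Again IDE-KD array 1 exceeded control array 1 and the other arrays kept the groups apart. The difference was -0.39 (SE 0.16), or 1.31-fold lower, with a 95% confidence interval of -0.73 to -0.05 (exact two-sided permutation p = 0.0571). Without control replicate 2, its highest array, the difference was -0.25 and the unadjusted limma p 0.0998. Without IDE-KD replicate 2 they were -0.31 and 0.084. H2ax shared the extremes of the replication-dependent genes, with IDE-KD array 2 and control array 1 the lowest of their groups and IDE-KD array 1 the highest.

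H2az1, H2az2, H3f3a and H3f3b had another order of arrays. H3f3a read 8.64, 9.64, 8.67 and 9.04 on the IDE-KD arrays, against 8.90, 8.87, 8.83 and 8.84 on the control arrays. Its control arrays lay within a narrow band (SD 0.03) that the IDE-KD arrays flanked on both sides (SD 0.47), and the difference of 0.13 (SE 0.19) was within that spread. H3f3b read 9.62, 10.37, 9.74 and 10.18 on the IDE-KD arrays, against 10.18, 10.08, 9.88 and 10.14 on the control arrays. Its difference of -0.09 (SE 0.17) had the other sign, although both genes encode H3.3.

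H2az1 read 9.04, 10.12, 9.42 and 9.83 on the IDE-KD arrays, against 9.70, 9.71, 9.39 and 9.49 on the control arrays, a difference of 0.03 (SE 0.20). H2az2 read 7.43, 7.85, 7.02 and 7.73 on the IDE-KD arrays, against 7.68, 7.51, 7.43 and 7.80 on the control arrays, a difference of -0.10 (SE 0.17). In all 4 genes IDE-KD arrays 2 and 4 were above IDE-KD arrays 1 and 3, and control array 3 was the lowest control array. The positive control probe sets of the arrays followed the same split, with means of 6.95, 7.13, 6.92 and 7.09 on IDE-KD arrays 1 to 4, against 7.05 to 7.10 on the control arrays. Their part in the variant values was not tested. With IDE-KD arrays 1 and 3 both left out, the differences were 0.40 for H2az1, 0.18 for H2az2, 0.48 for H3f3a and 0.20 for H3f3b.

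**Figure D3:**
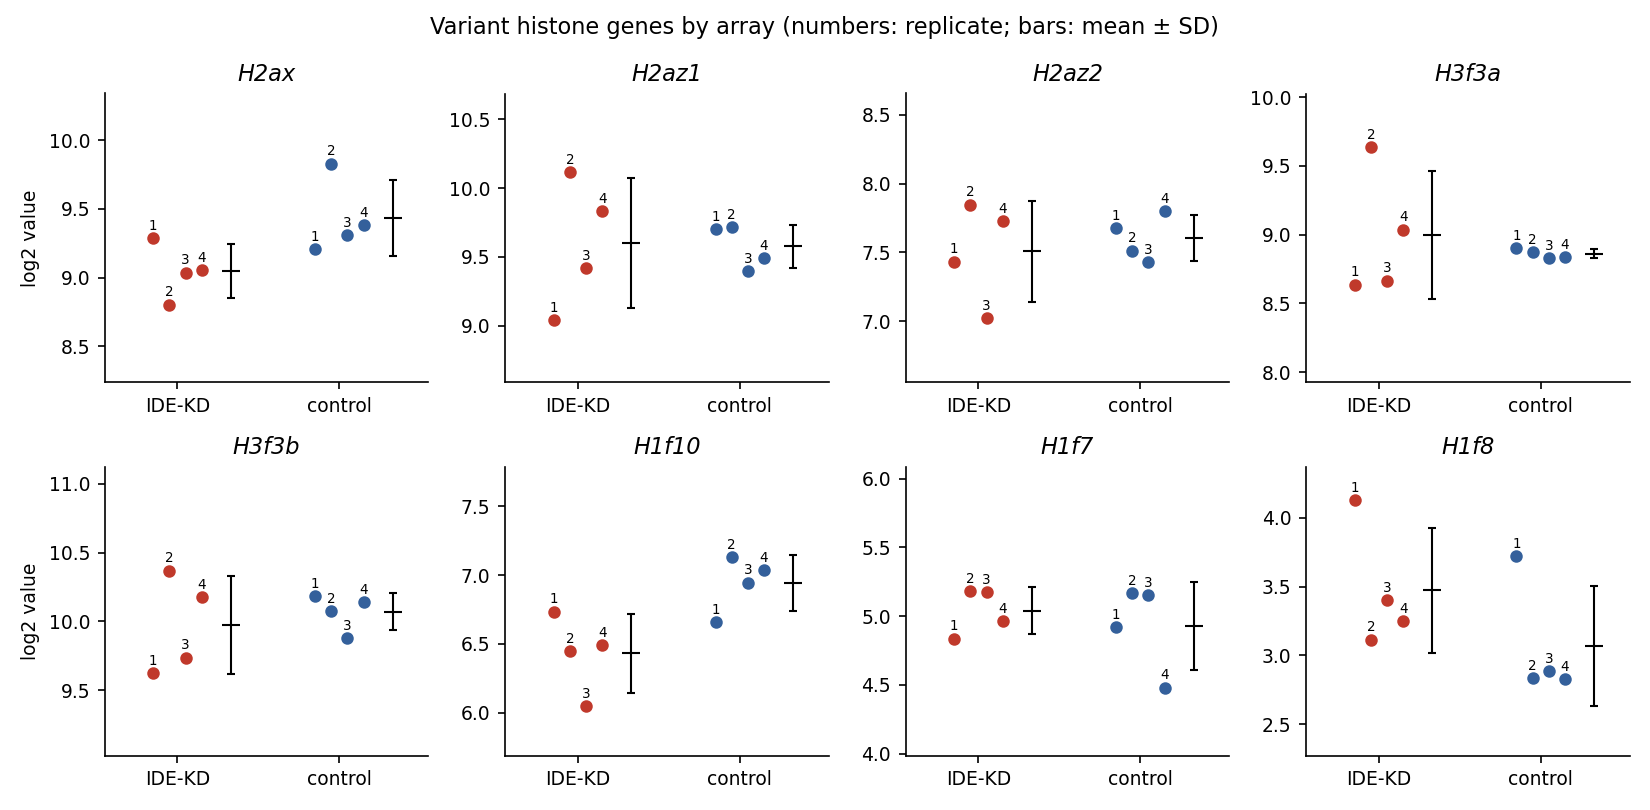
Log2 values (y axis, 1 span of units in every panel) of the 8 variant histone genes by array, IDE-KD left and control right, with replicate numbers and mean ± SD (n = 4 each). H1f10 and H2ax have 3 IDE-KD arrays below every control array, and H2az1, H2az2, H3f3a and H3f3b have IDE-KD arrays on both sides of the control arrays.

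Of the germline and testis histones, H1f8 and H1f6 lay below the median array control row, as did H3c1 of the clusters. H1f8 read 4.13, 3.11, 3.40 and 3.25 on the IDE-KD arrays, against 3.72, 2.84, 2.89 and 2.83 on the control arrays. Array 1 was the highest of each group, and the difference of 0.41 (SE 0.24, exact two-sided permutation p = 0.286) was the highest of any member. It was 0.19 without IDE-KD replicate 1 and 0.62 without control replicate 1. H1f7 differed by 0.11 (SE 0.16), H1f6 by -0.11 (SE 0.15) and H2bc1 by 0.07 (SE 0.20). H2ac1, the testis H2A gene, differed by -0.24 (SE 0.15), with 6.96 ± 0.27 in IDE-KD and 7.20 ± 0.16 in control cells (SD, n = 4 each), and IDE-KD array 1 was its highest and IDE-KD array 2 its lowest IDE-KD array, as in the somatic cluster genes.

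Genes that act on histones were read from the same fit. Of 31 measured genes of histone mRNA transcription and processing, 19 were fitted lower (against 47.9% of all probe sets) and 12 higher around a median of -0.05. None passed the adjusted threshold. At an unadjusted p under 0.05, 2 were lower (6.45%, against 1.91% of all probe sets) and 0 higher (against 2.69%). Tut7, a uridylyl transferase that tags histone mRNA for decay, averaged 6.60 ± 0.34 in IDE-KD and 7.04 ± 0.10 in control cells (SD, n = 4 each), a difference of -0.44 (SE 0.16). Upf1, a helicase needed for the same decay, differed by -0.41 (SE 0.16) and its groups did not overlap. Hinfp, an activator of H4 genes, differed by 0.23 (SE 0.13). Slbp and Npat, the stem-loop binding protein and the coactivator of histone loci, were picked after their values were seen. Slbp differed by -0.0044 (SE 0.11). Npat differed by -0.13 (SE 0.11), with every IDE-KD array (8.29 to 8.39) just below every control array (8.39 to 8.52). Nfya, a subunit of the CCAAT box factor NF-Y and also picked after its values were seen, was apart in the other direction. It differed by 0.17 (SE 0.11), with 7.59 to 7.85 on the IDE-KD arrays and 7.51 to 7.59 on the control arrays. Its lowest IDE-KD value of 7.59024 was barely above its highest control value of 7.59. Of the 31 genes, the groups did not overlap at 2 lower and 1 higher, against 1.41% and 1.39% of all probe sets.

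Of 37 measured histone chaperones and deposition factors, 12 were fitted higher and 25 lower (median -0.04), where 47.9% of all probe sets were fitted lower. At an unadjusted p under 0.05 there were 0 in either direction, against 4.59% of all probe sets. The smallest p belonged to Ruvbl2, an ATPase of remodelling complexes that deposit H2A.Z, at 0.28 (SE 0.16), Ubn1, of the HIRA complex that deposits H3.3, at -0.17 (SE 0.11), and Anp32a at -0.16 (SE 0.11). The groups did not overlap at 1 of the 37 (Anp32a, lower), against 1.41% of all probe sets, and at 0 higher, against 1.39%. Of 53 measured genes of S phase entry and DNA replication, 11 were fitted higher and 42 lower (median -0.08), again beside 47.9% of all probe sets fitted lower. At an unadjusted p under 0.05, 2 were lower (Hells and Exo1, 3.77%, against 1.91% of all probe sets) and 0 higher (against 2.69%). The helicase gene Hells differed by -0.38 (SE 0.15), Exo1 by -0.30 (SE 0.13) and the clamp loader gene Rfc1 by -0.23 (SE 0.12). Of these 53 genes, the groups did not overlap at 2 lower (Hells and Rfc1), against 1.41% of all probe sets, and at 0 higher, against 1.39%.

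The S phase genes and the replication-dependent histones differed in which arrays were low. The median shift of the S phase genes was -0.12, 0.07, -0.20 and 0.02 on IDE-KD arrays 1 to 4, against -0.01, 0.02, -0.0035 and 0.04 on control arrays 1 to 4. IDE-KD array 2 was thus the highest IDE-KD array for the S phase genes and the lowest for the histones, and control array 1 stood near the other control arrays. IDE-KD arrays 2 and 4 lay above IDE-KD arrays 1 and 3, as they did for the H2A.Z and H3.3 genes. No test of the difference between these lists was made.

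**Figure D4:**
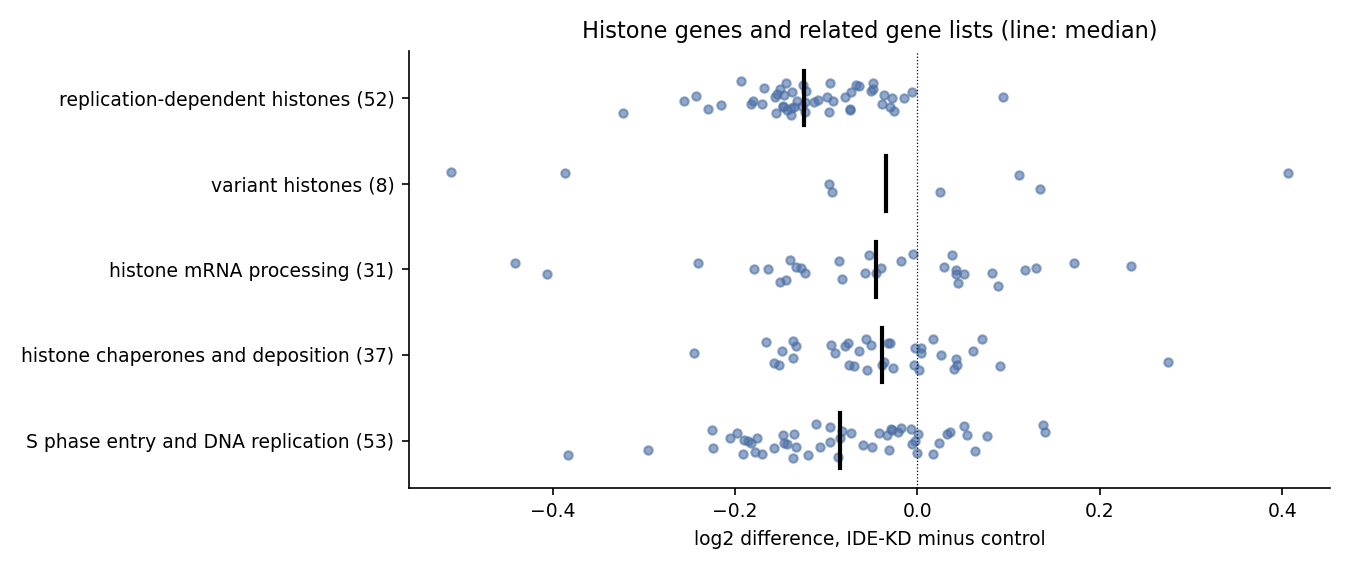
Log2 difference (IDE-KD minus control, x axis) of single genes (points) in 5 groups of genes (rows, number of genes in brackets), with black lines at the medians. Replication-dependent histones sit closest together, around -0.12, and S phase genes around -0.08 with a wider spread.

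Of 6 measured histone-family genes outside the symbol rule, 4 were fitted higher and 2 lower. Cenpa, the centromeric H3 gene, differed by -0.07 (SE 0.14). Macroh2a2 differed by -0.13 (SE 0.15), Hils1 by 0.16 (SE 0.17) and H2bl1 by 0.11 (SE 0.14). All of these lay within the spread between arrays.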

How the data were processed

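Clariom S arrays measured total RNA of 4 IDE-KD and 4 control samples. The authors deposited log2 values, and the submitters' processing notes list RMA, oligo and limma with neither version nor role. These were used unchanged. Of 29129 rows, 22142 transcript clusters were tested, leaving out 6923 array control rows and 64 unplaced rows. Symbols came from the platform table (1 for 19527 tested rows, none for 2615), and all 63 members matched RefSeq by gene identifier.

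Groups were compared (IDE-KD minus control) with lmFit and eBayes of limma 3.58.1 under R 4.3.3, with no covariate. P-values were adjusted over all 22142 rows by the Benjamini-Hochberg method. Single genes also had an exact two-sided permutation test. The limma step was tested on simulated data with independent noise at each row. It called 44.8% of changes of 1.5-fold and 98.1% of changes of 2-fold at an adjusted p under 0.05. Changes of 1.5-fold, 2-fold and 3-fold were planted together in many rows of each round, which eases the adjusted threshold. The shares may therefore be too high for a gene that changes alone. Genes that move together between arrays, as here, were not simulated, so these shares may not hold for them. The number of arrays limits the precision. A listed gene with several rows was read from the row of highest mean.

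Members and gene lists were chosen with earlier results of these data known. The rule named Ide, all variants, the 2 highest, the lowest and the 3 of smallest p in each replication-dependent class, members whose groups did not overlap, and the 3 of smallest p in each list. Testis cluster genes and others singled out were named after their values were seen. Alternatives were other scalings, variance models, filters on low or unnamed rows, a replicate block, an odd or even number factor and left-out arrays.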

Additional observations from a re-analysis of the deposited data

Results flagged for a closer look

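Within groups of 4 arrays, 5 of 126 gene and group combinations had 1 array far from the other 3 by Dixon's criterion, which chance alone meets in about 1 in 20. Control array 1 was low for H2bc12 (9.16, others 9.61 to 9.69), H2bc8 (7.81, others 8.27 to 8.30) and H3c11 (10.83, others 11.20 to 11.24), and high for H1f8 (3.72, others 2.83 to 2.89). IDE-KD array 1 was high for H4c9 (7.94, others 7.48 to 7.51). H2bc8 and H3c11 are named here after their values were seen.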

How the results depend on the processing

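In all 20 alternatives 0 histone genes and 0 probe sets passed the adjusted threshold. The smallest adjusted p over all probe sets was 0.152 with trend and robust variances. H1f10 kept an unadjusted p under 0.05 in each, with differences from -0.61 to -0.38. Histone genes higher at an unadjusted p under 0.05 numbered 1 with the replicate block (against 3.58% of all probe sets), 2 (H2az1 and H3f3a) with IDE-KD arrays 1 and 3 left out (4.88%), 1 with IDE-KD array 2 and control array 1 left out (4.46%), and 0 to 1 with single arrays left out (2.15% to 3.92%). Lower ones numbered 6 with IDE-KD arrays 1 and 3 left out (against 3.02% of all probe sets), 4 with trend and robust variances (1.91%), and 1 to 5 with single arrays left out (1.39% to 2.63%). The variant median was 0.16 with IDE-KD arrays 1 and 3 left out. The replicate block left the count of called genes at 0. Same-numbered arrays deviated together with correlations of 0.102, 0.129, 0.0876 and 0.0985, and only number 2 correlated best with its own number, so the numbers were not taken to pair samples.

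Several differences near 0 changed sign. With IDE-KD arrays 1 and 3 left out, H1f2 was 0.13, H2az2 0.18 and H3f3b 0.20. With IDE-KD array 2 and control array 1 left out, H1f5 was 0.00078, H2az1 -0.10 and H3f3a -0.066. H1f2 was 0.0066 with array weights. H2ac21 was 0.031 with array weights, 0.013 with cyclic loess and 0.00995 with quantile normalization. With single arrays left out, the ranges were -0.12 to 0.065 for H1f2, -0.17 to 0.065 for H1f5, -0.039 to 0.19 for H1f7, -0.11 to 0.015 for H2ac13, -0.10 to 0.12 for H2ac21, -0.15 to 0.21 for H2az1, -0.21 to 0.065 for H2az2, -0.19 to 0.056 for H2bc12, -0.19 to 0.12 for H3c1, -0.14 to 0.017 for both H3c14 and H3c15, -0.080 to 0.25 for H3f3a, -0.23 to 0.024 for H3f3b and -0.11 to 0.058 for H4c11. The cause was not tested. Members close to the background probe sets had the least signal to show a change.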
